A study of Gallus gallus with 9 samples.

Results

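The genes described here are *OTOL1* and *OTOP1*, which are linked to the otoconia of the balance organs. With a 3rd gene, *OC90*, they were listed as genes that mark the lagena in libraries of the chicken cochlea. They were chosen on their measured levels in these libraries, with attention to the first apex library, and were found by gene symbol. A symbol was matched for 2 of the 3 listed genes, among 24880 genes in all, and *OC90* was not analysed here. Because the levels chose the genes, the values of *OTOL1* and *OTOP1* below are a description and carry no test.

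RNA was taken from the base, the middle and the apex of the basilar papilla, the hearing organ of the bird, from untreated chickens at post-hatch day 1. With 3 replicates of each region there were 9 RNA-seq libraries, and each replicate pooled 8 cochleas of 4 chickens. The labels separate the 3 groups by position along the cochlear duct and give them the same age. There was no library of the lagena, so the label could not be checked against lagenar tissue.

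The lagena is a small macular organ at the apical tip of the cochlear duct of birds, just beyond the low-frequency end of the basilar papilla. Its hair cells lie under a gelatinous layer that carries otoconia, crystals of calcium carbonate on a protein matrix. In the mouse, otoconin-90, encoded by *Oc90*, is the main protein of the matrix, otolin-1 is a collagen-like scaffold protein that binds it, and otopetrin 1 is a proton channel without which otoconia do not form. The basilar papilla carries a tectorial membrane instead and has no otoconia.

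Levels are given as FPKM, a fragment count that the authors scaled to the length of the transcript and the size of the library. Between 12477 and 12779 genes reached an FPKM of 1 in each, and the relative number of fragments, estimated from the spacing of low FPKM values, spanned a factor of 1.61 from the shallowest to the deepest. Apex replicate 1 was among the shallower libraries, at 1.09 times the fragments of base replicate 1, against 1.11 and 1.44 for apex replicates 2 and 3. The libraries numbered 2 stood apart in the summed FPKM of 6 neuron genes, which was 598, 2662 and 1279 in base, middle and apex, against 97.4 to 517 in the other 6 libraries. The summed FPKM of 4 blood genes ranged from 799 to 9186 and was highest in apex replicate 3.

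*OTOL1* (ENSGALG00000026305) encodes otolin-1 and lies on chromosome 9 at 22025351 to 22028310 in galGal5. In the apex its FPKM was 24.6, 6.85 and 6.97 in replicates 1, 2 and 3. In the base it was 2.89, 0.269 and 1.97, and in the middle it was 1.17, 0.467 and 1.05. Each apex library was above each base and middle library, and the lowest apex value was 2.37 times the highest value outside the apex. Of all genes tested, 4.78% had all 3 apex libraries above all 6 base and middle libraries, by any margin, and 6.79% had apex replicates 2 and 3 above them. *OTOL1* was among both and *OTOP1* among neither, and nothing is read from this, since these levels chose the genes.

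The mean FPKM of *OTOL1* was 12.8 ± 10.2 (SD, n = 3) in the apex, 1.71 ± 1.33 in the base and 0.898 ± 0.377 in the middle. The apex mean was 7.48 times that of the base and 14.3 times that of the middle. The order of the means was therefore apex, base, middle, but base and middle did not differ beyond their spread, because the 3 middle values lay inside the range of the base. Same-numbered libraries gave ratios of apex to base of 8.50, 25.4 and 3.54, and ratios of middle to base of 0.406, 1.73 and 0.534. The base replicates were the most uneven among themselves, with a ratio of 10.7 between replicates 1 and 2.

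Apex replicate 1 held 64.0% of the summed *OTOL1* level of the 3 apex libraries. Its value was 3.58 times that of apex replicate 2 and 3.52 times that of apex replicate 3, which in turn were close to each other. Without apex replicate 1, the mean of the remaining apex libraries was 6.91, which is 4.04 times the base mean and 7.70 times the middle mean. On the log2(FPKM + 1) scale, the difference between apex and base was 2.26 with all libraries and 1.69 without apex replicate 1. Among all genes of the library, 4450 had a higher FPKM than *OTOL1* in apex replicate 1, against 9497 and 9468 in apex replicates 2 and 3 and 11001 to 13799 in the base and the middle. The gene thus stood at a moderate level in 1 library and at a low level in the others.

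*OTOP1* (ENSGALG00000030356) encodes otopetrin 1 and lies on chromosome 4 at 79093764 to 79105659. Its FPKM in the apex was 8.06, 2.11 and 2.49 in replicates 1, 2 and 3. In the base it was 1.08, 1.09 and 2.03, and in the middle it was 1.88, 1.70 and 2.62. Apex replicate 1 was the highest library, at 3.07 times the second highest, which was middle replicate 3. Apex replicates 2 and 3 lay within the range of the middle, so these regions overlapped. The lowest apex value, 2.11, was just above the highest base value, 2.03.

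The mean FPKM of *OTOP1* was 4.22 ± 3.33 (SD, n = 3) in the apex, 2.07 ± 0.489 in the middle and 1.40 ± 0.547 in the base. The apex mean was 3.01 times that of the base and 2.04 times that of the middle, and apex replicate 1 alone made up 63.6% of the apex sum. Without it, the apex mean was 2.30, which is 1.64 times the base mean and 1.11 times the middle mean. On the log2(FPKM + 1) scale, the difference between apex and base fell from 0.967 to 0.482, and that between apex and middle from 0.601 to 0.115. In the order apex, middle, base, neighbouring regions did not differ beyond their spread. Within replicate numbers, the middle was above the base in each of the 3 pairs, with ratios of 1.75, 1.56 and 1.29, while the ratio of apex to middle was 4.28, 1.24 and 0.951.

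**Figure D1:**
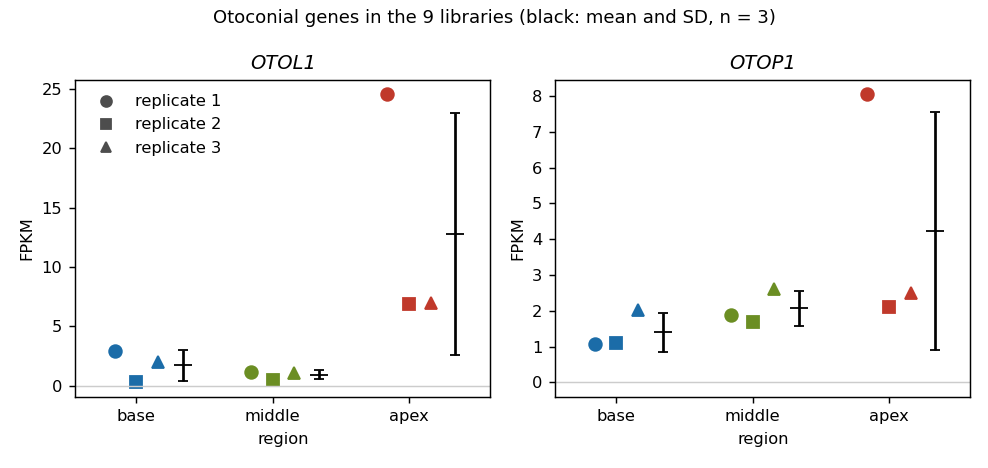
FPKM of *OTOL1* and *OTOP1* on linear axes in the 9 libraries, grouped by region, with the marker shape giving the replicate and black bars the mean and SD of 3 libraries. Apex replicate 1 is the highest library for both genes, at 24.6 and 8.06. The apex libraries are apart from the others for *OTOL1* but overlap the middle libraries for *OTOP1*.

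The 2 genes were raised in apex replicate 1 by a like factor relative to the other apex libraries, 3.52 to 3.58 for *OTOL1* and 3.23 to 3.82 for *OTOP1*. As a result, the ratio of *OTOL1* FPKM to *OTOP1* FPKM was even across the apex, at 3.05, 3.25 and 2.80. In the middle this ratio was lower, at 0.622, 0.275 and 0.402. In the base it was 2.68, 0.247 and 0.971, so that base replicate 1 was close to the apex libraries. FPKM is scaled by transcript length, so the ratio compares levels per length. Both genes were chosen with attention to apex replicate 1, so nothing is read from their shared excess there.

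**Figure D2:**
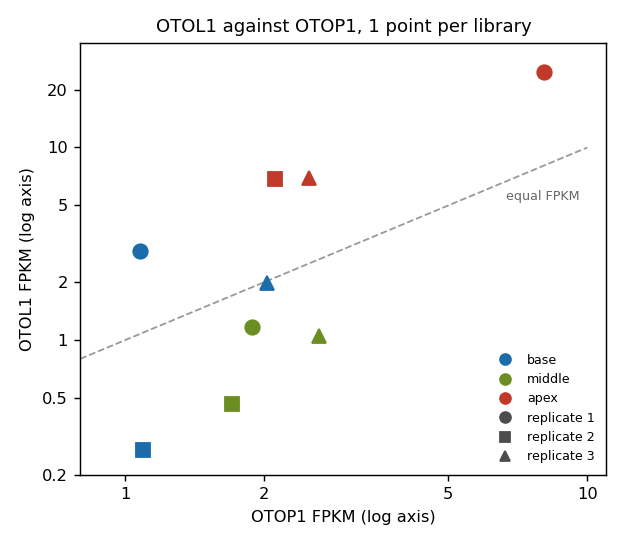
*OTOL1* FPKM against *OTOP1* FPKM, both on log axes, with 1 point per library, colour for region, shape for replicate and a dashed line at equal FPKM. The 3 apex libraries lie above the line at ratios of 2.80 to 3.25, the 3 middle libraries lie below it, and the base libraries range from 0.247 to 2.68.

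Over the 9 libraries, log2(FPKM + 1) of *OTOL1* and *OTOP1* had a Pearson correlation of 0.78 and a Spearman correlation of 0.55. Without apex replicate 1 the Pearson correlation was 0.398. The libraries share regions and replicate numbers, and 213 genes had a higher correlation with *OTOL1* than *OTOP1* had.

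None of the genes beside *OTOL1* and *OTOP1* on the chromosomes overlaps either gene, and 3 of the 4 were not highest in apex replicate 1. The nearest gene on one side of *OTOL1*, 12523 bases away and without a symbol, had an FPKM of 38.0 in apex replicate 1, against 43.8 and 46.9 in apex replicates 2 and 3. On the other side, 294961 bases away, a gene without a symbol ranged from 4.83 to 8.01 over the 9 libraries. *TMEM128*, a transmembrane protein gene 1516 bases from *OTOP1*, had 10.6 in apex replicate 1, against 16.3 and 12.7. *DRD5*, a dopamine receptor gene 10637 bases away on the other side, was highest in apex replicate 1, at 0.436 against 0.115 and 0.198 in apex replicates 2 and 3. Its FPKM was low in all 9 libraries, from 0.0318 to 0.436, with 0.356 in middle replicate 3.

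Few genes stood out in apex replicate 1 as *OTOL1* and *OTOP1* did. Of 13440 genes with an FPKM of at least 1 in some library, 7 (0.0521%) were at least 2-fold above the highest of the other 8 libraries on FPKM + 1, and *OTOL1* and *OTOP1* were among them. This number is not large for a library, since the counterparts were 4, 9 and 6 in the base, 7, 58 and 7 in the middle, and 7 and 29 in apex replicates 2 and 3. Since apex replicate 1 guided the choice of the genes, nothing is read from their place in this group.

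Of these 7 genes, 4 were listed at 0 in the other 8 libraries, among them the small RNA genes *SNORA69*, *U6ATAC* and *SCARNA11*, with an FPKM of 54.4, 39.3 and 13.6 in apex replicate 1. The loci given for *SNORA69* and *SCARNA11* are shared with other genes, and how fragments were divided there is not known. The same holds for *HEYL*, *SPARC*, *EMX2*, *SLC26A4* and *OTOP2*, named below, and in all for 5553 of the 24880 genes. *OTOL1* was above the next library by 1.68 and *OTOP1* by 1.32 on the log2(FPKM + 1) scale. The remaining gene was *GPR6*, an orphan G protein-coupled receptor gene, with 5.71 in apex replicate 1 and 2.21 and 0.774 in apex replicates 2 and 3.

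Just below the limit of 2-fold was *CIB3*, which encodes a calcium- and integrin-binding protein that in the mouse serves the transduction channel of vestibular hair cells. Its FPKM was 1.42 in apex replicate 1, against 0.3964 and 0.2998 in apex replicates 2 and 3, and its excess was 1.73-fold on FPKM + 1. The genes *ELF5*, *TMEM243*, *MSC*, *TPBG*, *HAPLN3* and *HEYL* were in excess by 1.30-fold to 1.60-fold. *TBX1*, a transcription factor gene needed for inner ear development, had 83.5 in apex replicate 1 against 52.2 and 61.5. *ALDH1A3*, which the table lists under the older symbol *ALDH6* and which encodes an enzyme of retinoic acid synthesis, had 36.5 against 14.2 and 26.7.

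**Figure D3:**
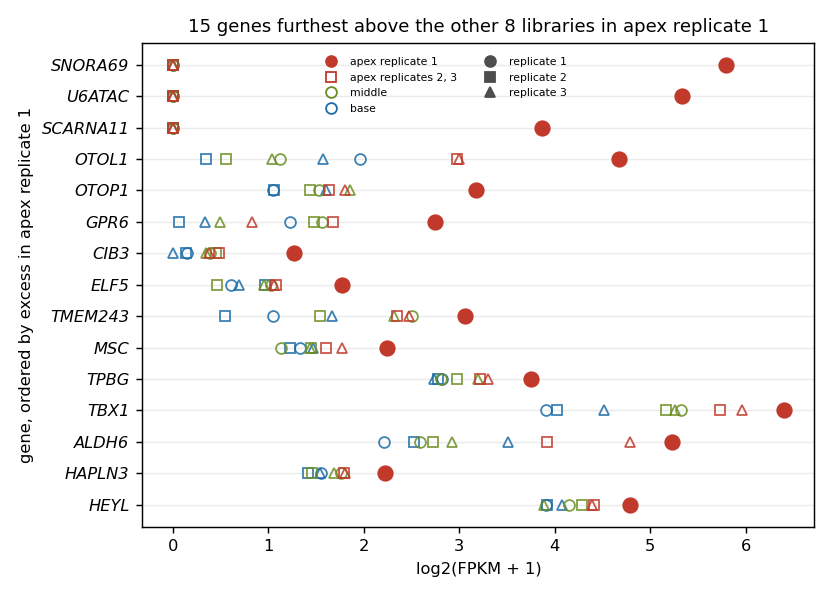
log2(FPKM + 1) in each of the 9 libraries for the 15 genes with a symbol that were furthest above the other 8 libraries in apex replicate 1, which is drawn as a filled circle. Small RNA genes listed at 0 elsewhere lead, followed by *OTOL1* and *OTOP1*.

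The summed levels of marker genes for other cell types were compared with the 2 genes, since each library is a piece of tissue. Fewer cells of a type and less RNA per cell cannot be told apart in such samples. The hair cell list (8 of 10 markers matched) summed to 225 in apex replicate 1, between 159 and 274 in apex replicates 2 and 3, and 2 of its 8 genes were highest there among the apex libraries. For the supporting cell list, the sums were 2534 in apex replicate 1, 2287 and 3228, with 1 of 7 genes highest in apex replicate 1. The neuron list was lowest in apex replicate 1, at 97.4 against 1279 and 116, with *PRPH* listed at 0 in all libraries and none of its genes highest in apex replicate 1.

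The cartilage list summed to 2548 in apex replicate 1 against 1874 and 2015, and 2 of its 3 matched genes were highest there. In the base it summed to 3685 to 4781. The sums for Schwann cells, secretory cells of the roof, bone and blood were not highest in apex replicate 1 among the apex libraries. The macrophage sums were 82.7, 76.2 and 83.1. Relative to the mean of apex replicates 2 and 3, the sums in apex replicate 1 ranged from 0.14 for neurons to 1.31 for cartilage. Such sums mostly follow their most abundant genes, such as *TECTB* at 1850 in apex replicate 1 for supporting cells. No marker list was for macular cells. The part of any of these cell types in the 2 genes' levels was not tested.

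**Figure D4:**
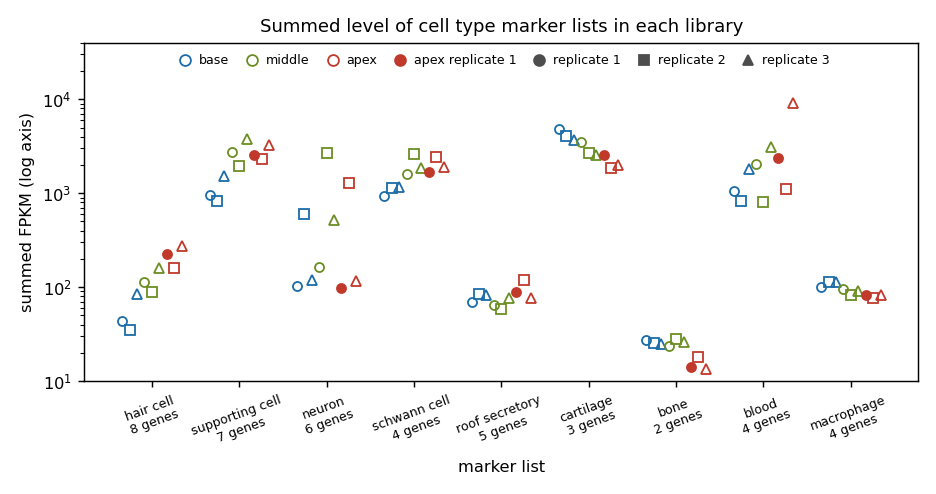
Summed FPKM of 9 marker lists on a log axis in each library, with regions by colour, replicates by shape and apex replicate 1 filled. Apex replicate 1 lies at 97.4 for the neuron list, the lowest of the 9 libraries, and among or near the other apex libraries for the remaining lists.

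The genes with a symbol most like *OTOL1* were chosen by the Pearson correlation of log2(FPKM + 1) over the 9 libraries. They were *GAD67* (0.959), *GATA5* (0.957), *DDHD1* (0.935), *TEF* (0.934) and *MYC* (0.927), and 22 genes with or without a symbol reached 0.9. These correlations share the apex as the high region, and without apex replicate 1 they were 0.922, 0.951, 0.855, 0.87 and 0.91. *GAD67*, which encodes a glutamate decarboxylase, had an FPKM of 10.003, 6.207 and 7.76 in the apex and 3.37 to 5.56 elsewhere. *GATA5*, a transcription factor gene, had 3.49, 2.98 and 2.48 in the apex and 1.05 to 2.10 elsewhere.

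For *OTOP1* the most similar genes with a symbol were *KRR1* (0.922), *TIPRL* (0.916), *HAPLN3* (0.91), *CD79B* (0.902) and *SNORA69* (0.892). Counting genes without a symbol too, 5 genes reached 0.9. Without apex replicate 1 these fell to 0.718, 0.557, 0.707 and 0.885 for the first 4, while *SNORA69* is listed at 0 in all the remaining libraries. No gene was named for both *OTOL1* and *OTOP1*.

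Among the other genes of the otoconia pathway, some were called higher and others lower between apex and base, and none was called between apex and middle. A list of 23 genes, of which 18 matched a symbol, holds genes of the otoconial matrix and its neighbours (9 of 13 matched) and genes for ions and redox chemistry (9 of 10 matched). This list was chosen with earlier results of these data known, so its counts beside those of all genes are a description. *NOX3*, *NOXO1*, *OTOP2* and *OTOP3* had no region with a mean FPKM of 1 and were not tested, with 0.651 as their highest FPKM, so 14 genes were tested. *NOX3* and *NOXO1* encode parts of the NADPH oxidase that otoconia need in the mouse, and *OTOP2* and *OTOP3* are the paralogues of *OTOP1*. Genes were called with limma on log2(FPKM + 1) over all 13045 genes tested, when the p-value adjusted by Benjamini-Hochberg was under 0.05 and the region means differed at least 1.5-fold.

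Between apex and base, 4 of the 14 genes were higher in the apex, 3 were lower and 7 were not called. Of all genes tested, 7.15% were called higher in the apex and 4.66% lower. The median log2 difference of the list was 0.31, beside -0.00706 for all genes tested. Hair cell sums also differed between these regions, with 34.6 to 83.6 in the base and 159 to 274 in the apex. Of the hair cell list, however, *TMC1* was lower in the apex and *CDH23* was level. Supporting cell sums were 826 to 1542 in the base and 2287 to 3228 in the apex. *TECTA*, *TECTB* and *OTOG* belong to both the supporting cell list and the pathway list. The part of either cell type in the pathway list was not tested.

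Among the matrix genes, *TECTA* and *TECTB* encode the tectorins, glycoproteins of the tectorial and otolithic membranes. *TECTA* had an FPKM of 80.8, 64.6 and 169 in the base, 291, 236 and 429 in the middle and 442, 340 and 517 in the apex. The base libraries did not overlap the others. The log2 difference between apex and base was 2.14 (SE 0.355, limma adjusted p = 0.00425), and the call held without any single library. *TECTB* rose by 1.27 on the log2 scale (SE 0.312, limma adjusted p = 0.0212), from a mean of 860 to 2014, and lost the call without base replicate 1, base replicate 2 or apex replicate 3 (adjusted p 0.0782 to 0.079).

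*SPARC* encodes osteonectin, a calcium-binding protein of the otoconial matrix and of bone and cartilage. Its FPKM was 12253, 10940 and 11034 in the base, 9222, 7484 and 7281 in the middle and 7272, 5284 and 6255 in the apex. The apex was below the base in all 3 libraries. The log2 difference of -0.874 (SE 0.198) was called with a limma adjusted p of 0.0153, and the call was lost without base replicate 1, base replicate 2, apex replicate 2 or apex replicate 3 (adjusted p 0.051 to 0.0685), and without the filter on low values (0.203).

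*FAM20C*, which encodes the kinase of secreted matrix proteins, fell by 0.822 on the log2 scale (SE 0.119, limma adjusted p = 0.00253), from 61.5, 56.7 and 56.9 in the base to 34.1, 34.2 and 29.6 in the apex. *CDH11*, the gene of a mesenchymal cadherin, fell by 0.673 (SE 0.129, limma adjusted p = 0.00816), and lost the call without base replicate 1. The cartilage sums also fell, from 3685 to 4781 in the base to 1874 to 2548 in the apex, and their part in *SPARC*, *FAM20C* and *CDH11* was not tested. *OTOA*, the gene of otoancorin, which anchors gels to the epithelium, had an adjusted p of 0.029 in limma but a ratio of 1.42, and was not called. *OTOG*, the gene of otogelin, had means of 7.50 in the base and 8.37 in the apex and was not called.

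Among the genes for ions and redox chemistry, *CA2*, the gene of a carbonic anhydrase, rose from a mean of 26.7 in the base to 56.7 in the apex. Its FPKM in the apex was 41.3, 44.4 and 84.2, all above the base values of 23.7, 24.5 and 32.1. The log2 difference was 0.993 (SE 0.272, limma adjusted p = 0.0317). The call was lost without base replicate 1, base replicate 2 or apex replicate 3 (adjusted p 0.0617 to 0.108). The blood sums were 1057, 834 and 1800 in the base and 2346, 1097 and 9186 in the apex, so that apex replicate 3 was highest for both, and the part of blood in *CA2* was not tested. *ATP2B2*, which encodes a calcium pump of hair bundles, rose by 0.799 on the log2 scale (SE 0.131, limma adjusted p = 0.00415), from 10.5, 10.7 and 12.7 to 19.2, 21.6 and 20.1. *SLC26A4*, the gene of pendrin, had means of 2.00 in the base and 2.87 in the apex, and with *NOXA1* and *CYBA* it was not called.

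Between middle and base, 4 of the 14 genes were called higher and 0 lower, while 2.93% of all genes tested were called higher in the middle and 1.46% lower. They were *TECTA*, *TECTB*, *ATP2B2* and *OTOA*, with log2 differences of 1.68, 1.42, 0.775 and 0.711 and limma adjusted p-values of 0.0276, 0.0315, 0.0156 and 0.0213. No gene of the list was called without base replicate 1, base replicate 2 or middle replicate 3 (0 each), and 2 were without middle replicate 1. Calls over all genes fell as well in the first 3 of these fits, to 69, 43 and 44 higher and 59, 40 and 27 lower. With all libraries they were 382 and 191, and without middle replicate 1 they were 350 and 207. Without the 3 libraries numbered 2, none of the 4 list genes was called, and *FAM20C* was called lower in the middle (limma adjusted p = 0.0481). Over all genes that fit called 71 higher and 49 lower. *CA2* was called as well when the replicate number was a block (limma adjusted p = 0.00567), a fit that called 995 genes higher and 293 lower. Between apex and middle, limma called 0 of the 14 genes, and 0 had an unadjusted p under 0.05. Of all 13045 genes tested, 1175 had such a p in this comparison. Without the block this comparison called few genes at all, with 0.046% (6 genes) higher in the apex and 0.0153% (2 genes) lower. With the block it called 186 genes higher and 89 lower, and 0 of the 14 list genes.

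Apex replicate 1 was the highest apex library for 5 of the 14 pathway genes, near the 35.1% of all genes tested. The largest ratio to the next apex library was 1.27, for *CDH11*. *OTOL1* and *OTOP1* were chosen with attention to apex replicate 1, so nothing is read from their contrast with the list.

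**Figure D5:**
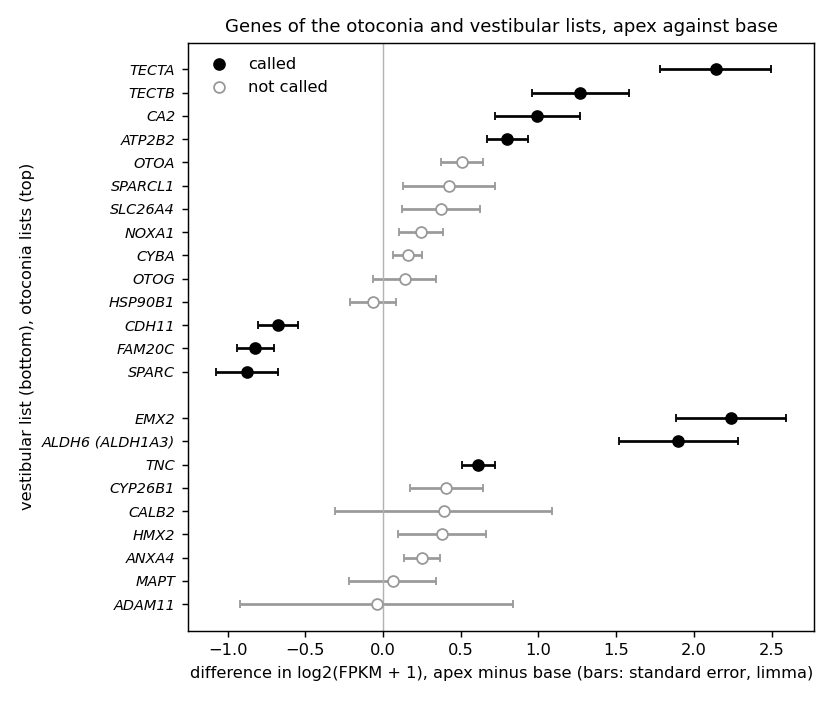
Difference in log2(FPKM + 1) between apex and base for the 14 tested pathway genes (top) and the 9 tested vestibular genes (bottom), with bars of 1 standard error from limma. Filled points are called genes, from *EMX2* at 2.24 to *SPARC* at -0.874.

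Genes linked to vestibular epithelia were examined next, as a list of 12 genes of which 10 matched a symbol and 9 were tested. This list too was chosen with earlier results of these data known, so its counts beside those of all genes are a description. *ZPLD1* had no region with a mean FPKM of 1 and was not tested. Its highest FPKM was 1.35 in apex replicate 1, against 0.803 and 0.455 in apex replicates 2 and 3 and 1.12 in middle replicate 1. Between apex and base, 3 of 9 were higher in the apex and 0 lower, beside 7.15% higher and 4.66% lower of all genes tested. The list's median log2 difference was 0.39, beside -0.00706 for all genes tested. The called genes were *EMX2*, *ALDH1A3* and *TNC*. The hair cell sums, at 34.6 to 83.6 in the base and 159 to 274 in the apex, were also higher in the apex. Of the hair cell list, *TMC1* was lower there and *CDH23* was level. The part of hair cells in the vestibular list was not tested.

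*EMX2*, a transcription factor gene that sets hair bundle orientation in the mouse maculae, had an FPKM of 2.69, 4.01 and 8.53 in the base, 15.3, 9.97 and 18.6 in the middle and 28.7, 19.2 and 29.8 in the apex. No value was shared between the 3 regions' ranges. The log2 difference between apex and base was 2.24 (SE 0.353, limma adjusted p = 0.00353). *ALDH1A3* had 3.63, 4.74 and 10.4 in the base, 5.04, 5.62 and 6.58 in the middle and 36.5, 14.2 and 26.7 in the apex, a log2 difference between apex and base of 1.90 with a limma adjusted p of 0.00984. Its lowest apex value, 14.2 in replicate 2, was above its highest value elsewhere, 10.4 in base replicate 3. *TNC*, the gene of the matrix protein tenascin C, rose by 0.613 on the log2 scale (limma adjusted p = 0.00493), and without apex replicate 1 its ratio of means was under 1.5.

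Between middle and base, *EMX2* and *CYP26B1*, the gene of an enzyme that breaks down retinoic acid, were higher, by 1.44 and 1.10 on the log2 scale (limma adjusted p = 0.042 and 0.0285), which is 2 of the 9 genes beside 2.93% of all genes tested. Neither call held without base replicate 1, base replicate 2, middle replicate 1 or middle replicate 3 (0 genes of the list called each). Over all genes these fits called 69, 43, 350 and 44 higher in the middle, against 382 with all libraries. Of the 2 calls, 1 held without apex replicate 1 or apex replicate 3. *ADAM11* was called too with the replicate number as a block (limma adjusted p = 0.031), a fit that called 995 genes higher and 293 lower. Its FPKM was highest in each region in replicate 2, at 10.96, 42.33 and 20.71, as were the sums of the neuron list, and the part of neurons in it was not tested. Between apex and middle, limma called 0 of the 9 genes, with 4 at an unadjusted p under 0.05, beside 1175 of all 13045 genes tested. With the replicate block, *ALDH1A3* was higher in the apex (limma adjusted p = 0.027) and *CYP26B1* was lower (limma adjusted p = 0.0134). Of all genes tested, that fit called 186 higher in the apex and 89 lower.

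Apex replicate 1 was the highest apex library for 3 of the 9 tested vestibular genes, beside 35.1% of all genes tested. Among these 9, the largest ratio to the next apex library was 1.36, for *ALDH1A3*. *CALB2*, the gene of calretinin, was highest in apex replicate 2, at 61.8 against 14.9 and 10.4 in apex replicates 1 and 3. Like *ADAM11* and the neuron sums, *CALB2*, *MAPT* and *ANXA4* were highest in replicate 2 in each region. In base, middle and apex replicate 2, *CALB2* had 24.1, 59.1 and 61.8, and *MAPT* had 27.8, 54.8 and 32.5. *EMX2*, *ALDH1A3*, *CYP26B1*, *TNC* and *HMX2* did not share this order. The part of neurons in these genes was not tested.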

How the data were processed

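Paired-end RNA-seq libraries of base, middle and apex (3 replicates each) were used. Reads of 101 bp were mapped by the authors to galGal5 (STAR v2.5.4b, 3 mismatches at most), and the FPKM table they deposited came from Cuffdiff v2.2.1 and Ensembl release 91. Counts and depth are not part of the table, so no counting interval was computed, and relative fragments are an estimate. Loci were converted to a first base of 1.

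limma 3.58.1 (R 4.3.3) was run on log2(FPKM + 1) of the 9 libraries, with a term for region and an intensity trend. Tests covered the 13045 genes whose mean FPKM reached 1 in some region and were two-sided, with Benjamini-Hochberg adjustment. The fit was run on simulated data with independent noise. These held large changes only, in genes that were not low, so they do not measure the accuracy of the fit on these libraries. Fold differences of log2(FPKM + 1) understate changes of low genes.

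Same-numbered libraries deviated together from their region means (9 pairs, r from 0.368 to 0.66). The other 18 pairs, at -0.52 to 0.151, are no separate evidence, since deviations from a region mean cancel within the region. The methods imply, without stating it, that same-numbered libraries share chickens. The numbers were therefore taken to pair the libraries in a fit blocked on replicate number, which is given where it changes a call. All other fits, with their standard errors, p-values and shares of all genes, had no such block. This includes the fits without 1 library, in which some calls were lost. For *TECTB*, *CA2* and *SPARC* between apex and base, the blocked fit gave limma adjusted p-values of 0.000269, 0.000565 and 0.00205. Without the block these were 0.0212, 0.0317 and 0.0153. With the block, limma called 1249 genes higher and 716 lower between apex and base, against 933 and 608 in the main fit. Between middle and base these counts were 995 and 293 against 382 and 191. Between apex and middle they were 186 and 89 against 6 and 2.

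Named were the 2 matched genes and the genes of the lists that were called. The 5 genes with a symbol most correlated with each matched gene were named too. So were the 15 genes with a symbol furthest above the other libraries in apex replicate 1. Other list genes are named as examples. The genes and the lists were chosen with earlier results of these data known. Alternatives were a pseudocount of 0.1, other filters, quantile normalization, median-ratio scaling, no intensity trend, no ratio criterion, the block and fits without each library. Older symbols came from RefSeq (GRCg7b), and no sequence was used here.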

Additional observations from a re-analysis of the deposited data

How the results depend on the processing

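In fits without 1 library, the pathway genes called between apex and base numbered 3 to 8, between middle and base 0 to 5, and between apex and middle 0 to 0. For the vestibular list these ranges were 2 to 3, 0 to 2 and 0 to 0. In a fit added after the data were seen, without the 3 libraries numbered 2, 3 pathway genes were called between apex and base (*TECTA* and *ATP2B2* higher, *FAM20C* lower). Between middle and base this fit called 0 pathway genes higher and 1 lower (*FAM20C*), so that the 4 higher calls were lost. It called 0 vestibular genes there, and over all genes 71 higher and 49 lower, against 382 and 191 in the main fit. Between apex and base it called 797 genes higher and 448 lower, against 933 and 608. Without a filter on low values, or without the intensity trend, 1 vestibular gene was called between middle and base. With the replicate block, 2 vestibular genes were called between apex and middle (*ALDH1A3* and *CYP26B1*). The block also added *CA2* and *ADAM11* between middle and base, and it changed no call of the lists beyond these 4. Without 1 library, the log2 difference between apex and base ranged from 1.69 to 2.59 for *OTOL1* and from 0.482 to 1.25 for *OTOP1*, between middle and base from -0.862 to -0.0543 and from 0.241 to 0.547, and between apex and middle from 2.08 to 2.93 and from 0.115 to 0.886. No difference of *OTOL1*, *OTOP1* or the called list genes changed its sign under the alternatives run. Alternatives planned for *OC90* were not run, since it was not matched. The authors give a range of read pairs per replicate but no depth for each library. The number of fragments behind low levels, such as those of *OTOL1* outside the apex, was therefore not computed.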
